A study of Mus musculus with 30 samples.

Results

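The enzymes of glycolysis are represented on this mouse cDNA array by 31 spots of 18 genes, out of 22830 spots that carry a gene. They are all spots whose name begins with that of triosephosphate isomerase, phosphofructokinase, phosphoglycerate kinase 1, enolase, aldolase, lactate dehydrogenase, pyruvate kinase, glucose phosphate isomerase or hexokinase. The cells were AtT-20, a single mouse tumour line of the corticotrope lineage, the ACTH-secreting cells of the pituitary, on which CRH acts. They were kept without serum for 18 h, then received 100 nM human/rat CRH for 1, 3, 6, 12 or 24 h, and serum-deprived cells without CRH, harvested at the same hours, were the untreated group. At each of 5 time points, RNA from treated and untreated cells was hybridised together on 6 arrays, which gives 30 in all. The treated sample was labelled with Cy3 on 3 of the 6 and with Cy5 on the other 3. Both extracts of a time point were the same on its 6 arrays, which are therefore technical replicates, so a p-value over arrays measures the spread of labelling, hybridisation and scanning, not that between cultures.

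Glycolysis converts glucose to pyruvate in the cytosol. Hexokinase, glucose phosphate isomerase and phosphofructokinase activate the sugar, aldolase and triosephosphate isomerase cleave it and interconvert the resulting triose phosphates, and phosphoglycerate kinase, enolase and pyruvate kinase lead on to ATP and pyruvate, which lactate dehydrogenase can reduce to lactate. Phosphofructokinase catalyses the committed step, and many of these genes are known to be induced together when oxygen is low.

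A value is the log2 ratio of treated over untreated cells in 1 spot on 1 array, after loess correction within each print-tip block. A ratio moves alike when either RNA changes, so the treated and the untreated extract cannot be told apart as the one that moved. Spots that fell among the dimmest 10% on any array, in Cy3 or in Cy5, were removed, and 24 glycolytic spots of 15 genes remained of 14375 spots in all. Among those removed were the only spots of Ldhb and Pklr, one each of Aldoa and Aldoc, and 2 of 5 spots of Eno2. No glycolytic spot reached the scanner limit on any array. Channel medians of intensity lay between 481.8 and 2174.7. Precision is limited by the single pair of extracts at each time point, and the spread between cultures was not measured. Over the 6 arrays of a time point, both dye orientations included, the SD of a spot had a median between 0.27 and 0.35 on the log2 scale, depending on the hour. Of the corticotrope markers, the spots of Pomc, Tbx19 and Neurod1 were above the dimmest 10% on all arrays. Those of the leukocyte markers Lyz2 and Ptprc were not. Of 8 collagen and decorin spots, which mark fibroblasts, 4 also passed, and so did the Gh spot. Cd3e, a further leukocyte marker, was not among the marker spots examined here. The study lists a spot of Cd3e among its candidates, which had to be detected at every time point. It also reports that in PCR the level of Cd3e lay beyond linear detection, so the gene was not checked there.

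The ratios of several glycolytic enzymes lay below 0 after 1 h of CRH, above 0 after 3 h and near 0 after 6 h. Tpi1 showed this most clearly, with mean log2 ratios of -0.42 ± 0.31 (SD, n = 6 arrays) at 1 h and 0.54 ± 0.28 at 3 h. Gpi1, Aldoa, Pgk1, Eno3 and Ldha had the same order at 1 and 3 h, but Eno3 spot 12943 still had a mean of 0.31 at 6 h. Spot 7668 of Pfkp differed from these enzymes: it was low at 1 h and close to 0 at every later hour. The other Pfkp spots did not share this course. Spot 6082 had means of -0.13, 0.30 and 0.08 at 1, 3 and 6 h, and spot 7133 of -0.15, 0.11 and -0.10.

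**Figure D1:**
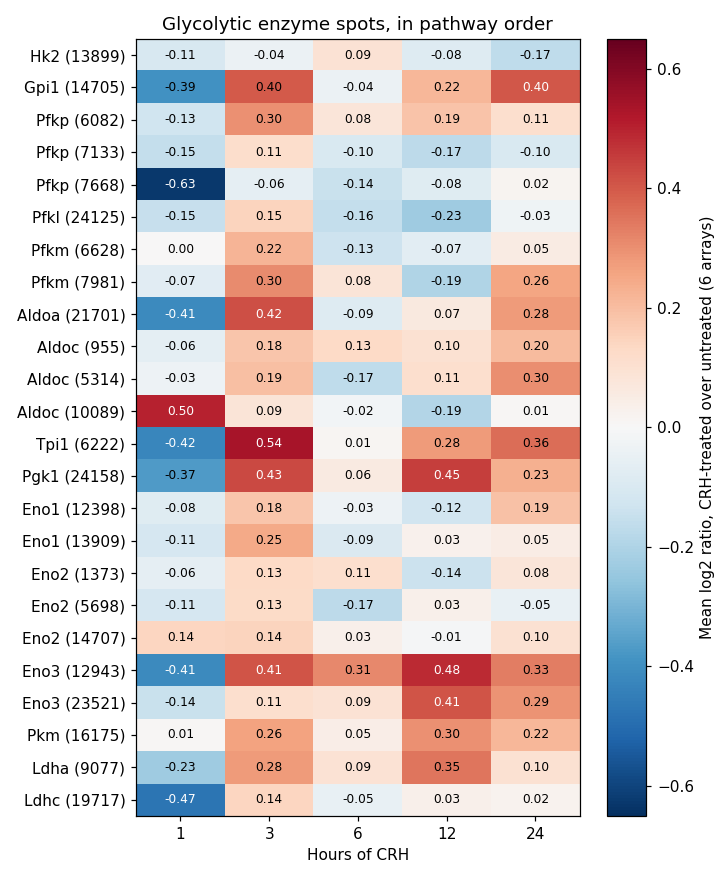
Mean log2 ratio, treated over untreated, for the 24 glycolytic spots (rows, in the order of the pathway, spot number in brackets) by hours of CRH (columns), each over 6 arrays, with red for values above 0 and blue for values below 0. The column at 1 h is mostly blue, from -0.63 for Pfkp spot 7668 to 0.50 for Aldoc spot 10089, and that at 3 h mostly red, up to 0.54 for Tpi1.

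A linear model over the arrays (n = 30) first tested whether the effect of time depended on the dye orientation, at p under 0.01. This interaction was found for 3 of 24 glycolytic spots, Ldha, Pgk1 and spot 12943 of Eno3, beside 14.8% of all 14375 spots. The other 21 were tested for a change with time, given dye orientation. At p under 0.01 there were 5 of 21 called, Tpi1, Gpi1, Aldoa, Aldoc spot 5314 and Pfkp spot 7668, beside 8.5% of all 12244 spots tested. After Benjamini-Hochberg adjustment over all tested spots, 3 of them (Tpi1, Gpi1 and Aldoa) remained under 0.05, beside 3.99% of all. The test says that the ratios differed between time points, not that they differed from 0.

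Hexokinase, which phosphorylates glucose on entry, was represented by 1 spot of Hk2. Its arrays at 24 h ran from -0.42 to -0.03 with a median of -0.10, and all 6 lay below 0. Its means stayed between -0.17 at 24 h and 0.09 at 6 h, and the time test did not pass (p = 0.254, n = 30). All 6 below 0 at 24 h was seen in 1 of 24 glycolytic spots, beside 1.99% of all spots.

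Gpi1 encodes glucose phosphate isomerase, which turns glucose-6-phosphate into fructose-6-phosphate. At 1 h its arrays ran from -0.60 to 0.07 with a median of -0.47, at 3 h from 0.20 to 0.71 with a median of 0.39, and at 6 h from -0.40 to 0.21 with a median of 0.03. The ranges at 1 and 3 h did not overlap, and 5 of 6 arrays were below 0 at 1 h. At 12 h they spanned -0.03 to 0.40 (median 0.23) and at 24 h 0.01 to 1.28 (median 0.27), all above 0 at 24 h but with 1 array far above the rest. Its means differed between time points (p = 0.00017, adjusted p = 0.0106, n = 30), with the lowest at 1 h (-0.39 ± 0.24) and nearly equal means at 3 h (0.40 ± 0.18) and 24 h (0.40 ± 0.46). Without the 1 h arrays the time test gave p = 0.0416 (n = 24) and was no longer under 0.01.

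Phosphofructokinase was measured by 3 spots of the platelet type Pfkp, 2 of the muscle type Pfkm and 1 of the liver type Pfkl. On Pfkp spot 7668 the arrays at 1 h were -1.12, -0.36 and -1.18 when the treated sample carried Cy3 and -0.21, -0.30 and -0.61 when it carried Cy5. All 6 lay below 0, and both lowest ones were of the Cy3 orientation. From 3 h on, the arrays ran from -0.37 to 0.12 after 3 h, from -0.79 to 0.31 after 6 h, from -0.48 to 0.42 after 12 h and from -0.13 to 0.15 after 24 h, each range enclosing 0 and overlapping that of 1 h except at 24 h.

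The mean of this spot at 1 h, -0.63 ± 0.42, was the only one among the 120 means of the glycolytic spots to reach 1.5-fold (0.585 on the log2 scale) with 1 sign on all 6 arrays. That is 1 of 24 spots at 1 h, beside 0.202% of all spots, and 0 of 24 at each later hour, beside 0.0348% to 0.181% of all. The means at 3, 6, 12 and 24 h were -0.06, -0.14, -0.08 and 0.02. The test for a change with time gave p = 0.00399 and an adjusted p of 0.0721 (n = 30). Without the 1 h arrays p was 0.759 (n = 24) and the largest difference between means was 0.16 in place of 0.64. Without the 24 h arrays p was 0.0109 (n = 24), and with the day of quantification as a block it was 0.338 (n = 30). The 1 h arrays, and no others, were quantified on 1 day, so this block takes up any difference of 1 h from the other hours. The p with that block compares only hours that share a day and cannot speak to the low values at 1 h. Of the 6 arrays at 1 h, leaving out replicate 1, 3 or 6 gave p = 0.0211, 0.0224 or 0.0141, and leaving out replicate 2, 4 or 5 kept p under 0.01, at 0.00154, 0.00326 or 0.00501 (n = 29).

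The other Pfkp spots had means at 1 h of -0.13 ± 0.13 (spot 6082) and -0.15 ± 0.66 (spot 7133), 0.50 and 0.48 above that of spot 7668. Neither passed the time test (p = 0.0228 and 0.399, n = 30). Spot 6082 had a mean of 0.30 ± 0.17 at 3 h. Pfkl lay below 0 on all 6 arrays at 1 h, from -0.55 to -0.02 with a median of -0.08, and had p = 0.0289 for time (n = 30). The Pfkm spots had means of 0.22 and 0.30 at 3 h, and p = 0.126 and 0.278 for time (n = 30).

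Aldolase splits fructose-1,6-bisphosphate into a pair of triose phosphates. The measured spot of Aldoa, its widely expressed form, had arrays from -1.14 to 0.13 (median -0.34) at 1 h, from 0.20 to 0.65 (median 0.46) at 3 h and from -0.31 to 0.38 (median -0.18) at 6 h. All 6 arrays at 3 h lay above those at 1 h. At 12 and 24 h the medians were 0.06 and 0.20, with ranges of -0.18 to 0.34 and -0.04 to 0.87. The change with time had p = 6.34e-05 (adjusted p = 0.00579, n = 30), between means of -0.41 ± 0.50 at 1 h and 0.42 ± 0.18 at 3 h. At 1 h the orientation means were -0.81 for Cy3 and -0.02 for Cy5.

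Aldoc, the brain form, had 3 measured spots that disagreed. Spot 5314 was lowest at 6 h, where its arrays ran from -0.36 to 0.12 (median -0.23), and highest at 24 h, where they ran from 0.13 to 0.54 (median 0.26) and were all above 0. Its means were -0.17 ± 0.20 and 0.30 ± 0.14, with p = 0.00398 for time (n = 30) and an adjusted p of 0.0721. Without 6 h p was 0.0546, and without 24 h it was 0.0386 (n = 24). Spot 10089 was above 0 on all 6 arrays at 1 h, from 0.00 to 0.80 with a median of 0.55, the only glycolytic spot above 0 on all 6 at that hour (1 of 24, beside 2.94% of all spots), and its time test gave p = 0.0448 (n = 30). Spot 955 had means between -0.06 and 0.20, with an SD of at least 0.51 at every hour.

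Tpi1 encodes triosephosphate isomerase, which converts dihydroxyacetone phosphate to glyceraldehyde-3-phosphate. At 1 h its arrays were -0.38, -0.19 and -0.02 when the treated sample carried Cy3 and -0.49, -0.91 and -0.55 when it carried Cy5. At 3 h they were 0.85, 0.68 and 0.81, then 0.20, 0.24 and 0.45. Every array at 3 h was above 0 and above every array at 1 h, in both orientations.

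At 6 h the Tpi1 arrays of the Cy3 orientation were 0.61, 0.37 and 0.06, and those of the Cy5 orientation -0.40, -0.24 and -0.32, so the orientations took opposite signs and the mean was 0.01 ± 0.41. At 12 h the values were 0.57, 0.44 and 0.48 against 0.18, 0.01 and -0.03, and at 24 h 0.48, 0.68 and 0.75 against 0.15, 0.13 and -0.01. The Cy3 orientation was thus higher at all 5 time points, by 0.45 to 0.67 between the orientation means, and such a steady difference cancels in a mean over both. The means at 12 and 24 h were 0.28 ± 0.26 and 0.36 ± 0.32.

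The change of Tpi1 with time had p = 4.57e-10 (adjusted p = 9.33e-07, n = 30), and the interaction of time and dye had p = 0.716. From 1 h to 3 h its mean rose by 0.96 on the log2 scale. That difference was 0.97 in the Cy3 orientation and 0.95 in the Cy5 orientation. The lowest and highest difference when any 1 of the 30 arrays was left out were 0.86 and 1.04.

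**Figure D2:**
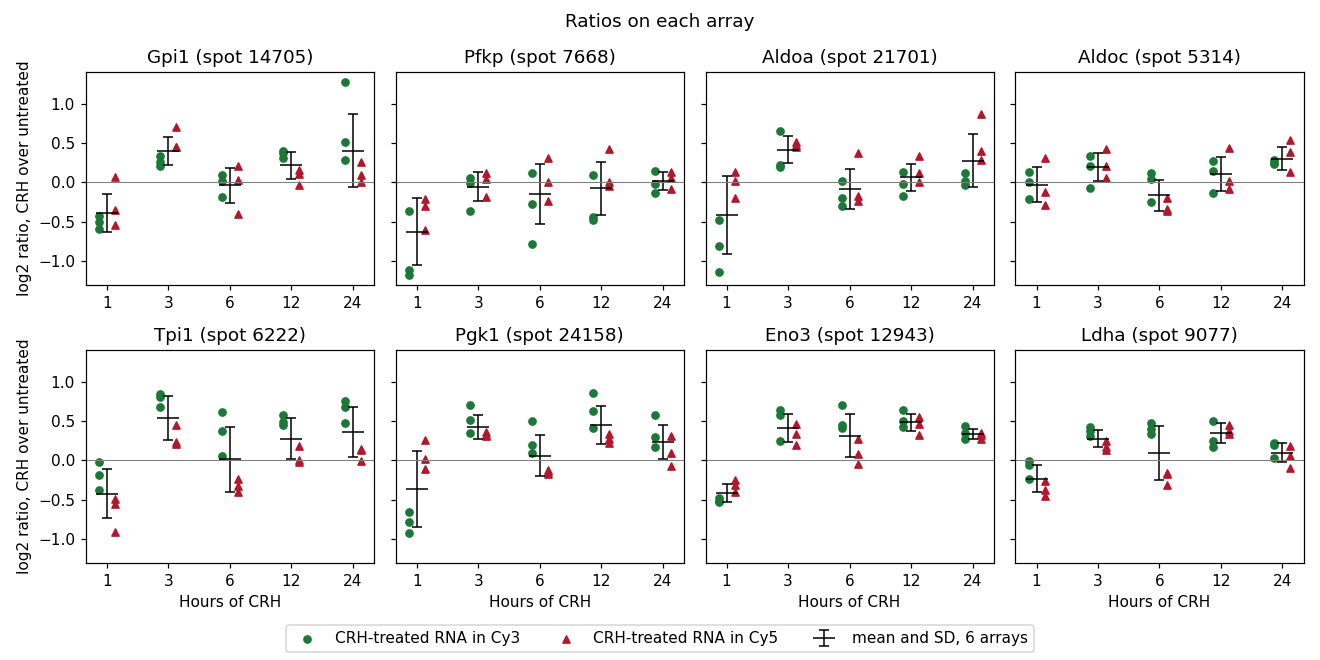
Log2 ratio, treated over untreated (vertical axis), on each array by hours of CRH (horizontal axis) for 8 glycolytic spots, with green circles where the treated sample carried Cy3, red triangles where it carried Cy5 and black bars for the mean and SD of 6 arrays. For Tpi1, Gpi1, Aldoa, Eno3, Ldha and Pgk1 all arrays at 3 h lie above 0 and above those at 1 h. Pfkp spot 7668 is low at 1 h alone.

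Pgk1 encodes phosphoglycerate kinase 1, which makes ATP from 1,3-bisphosphoglycerate. Its dye difference was not constant over time (interaction p = 6.31e-06, n = 30): at 1 h the orientation means were -0.79 for Cy3 and 0.06 for Cy5, but at 3 h 0.52 and 0.33. Its arrays ran from -0.92 to 0.26 (median -0.38) at 1 h, from 0.31 to 0.70 (median 0.36) at 3 h and from 0.22 to 0.86 (median 0.37) at 12 h. All arrays at 3 and 12 h lay above 0, and the low values at 1 h came from a single orientation. Without the 1 h arrays the interaction had p = 0.622 and the change with time p = 0.000977 (n = 24).

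Enolase turns 2-phosphoglycerate into phosphoenolpyruvate. On Eno3 spot 12943, the muscle form, arrays ran from -0.53 to -0.25 (median -0.44) at 1 h, from 0.19 to 0.64 (median 0.40) at 3 h, from 0.32 to 0.64 (median 0.49) at 12 h and from 0.27 to 0.44 (median 0.33) at 24 h. They were all below 0 at 1 h and all above 0 at these 3 later hours. The interaction had p = 0.00806 (n = 30). The orientation means were 0.52 in Cy3 and 0.10 in Cy5 at 6 h, and -0.51 and -0.32 at 1 h, where the difference had the opposite sign. Without 1 h the interaction had p = 0.107 and without 6 h p = 0.094 (n = 24). Its second spot, 23521, had -0.14 ± 0.38 at 1 h and 0.41 ± 0.30 at 12 h and p = 0.221 for time (n = 30).

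The ubiquitous form Eno1 had means at 3 h of 0.18 (spot 12398) and 0.25 (spot 13909), and p = 0.0701 and 0.0222 for time (n = 30). The neuronal form Eno2 had means between -0.17 and 0.14 over its 3 measured spots, and p of 0.405 to 0.792 (n = 30). Pkm, the muscle pyruvate kinase that makes the last ATP of the pathway, lay above 0 on all 6 arrays at 12 h, from 0.11 to 0.60 with a median of 0.24, and had p = 0.270 for time (n = 30).

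Ldha, the A chain of lactate dehydrogenase, had arrays from -0.45 to -0.01 (median -0.25) at 1 h, from 0.14 to 0.43 (median 0.28) at 3 h and from 0.17 to 0.50 (median 0.36) at 12 h. All arrays were below 0 at 1 h and above 0 at 3 and 12 h. At 6 h the orientations split, with means of 0.40 in Cy3 and -0.22 in Cy5, and the interaction had p = 0.00022 (n = 30). Ldhc, the testis form, had -0.47 ± 0.55 at 1 h and 0.14 ± 0.17 at 3 h, and p = 0.0781 for time (n = 30).

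Counted over the pathway, 5 of 24 spots were below 0 on all 6 arrays at 1 h (Tpi1, Pfkp spot 7668, Ldha, Eno3 spot 12943 and Pfkl), beside 3.4% of all spots. At 3 h 6 of 24 were above 0 on all 6 (Tpi1, Gpi1, Aldoa, Pgk1, Eno3 spot 12943 and Ldha), beside 4.66%. At 12 h 4 of 24 were (Pgk1, Eno3 spot 12943, Pkm and Ldha), beside 2.37%, and at 24 h 3 of 24 (Gpi1, Aldoc spot 5314 and Eno3 spot 12943), beside 2.57%. At 6 h no glycolytic spot had 1 sign on all arrays, beside 1.27% of all spots above 0 and 1.39% below 0 on all 6.

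The median of the 24 spots was -0.12 at 1 h and 0.19 at 3 h, then -0.00, 0.03 and 0.10 at the later hours, while the median of all spots stayed between -0.02 and 0.00. The mean at 3 h was above that at 1 h in 23 of 24 glycolytic spots, the exception being Aldoc spot 10089, and in 47.2% of all spots. The median difference between these hours was 0.28 for the glycolytic spots and -0.02 for all spots, and it reached 1.5-fold in 6 of 24 (25%) against 2.16% of all. These are descriptions: spots of 1 gene and of close relatives are not independent, and cDNA spots can bind RNA of a related gene, which was not tested.

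**Figure D3:**
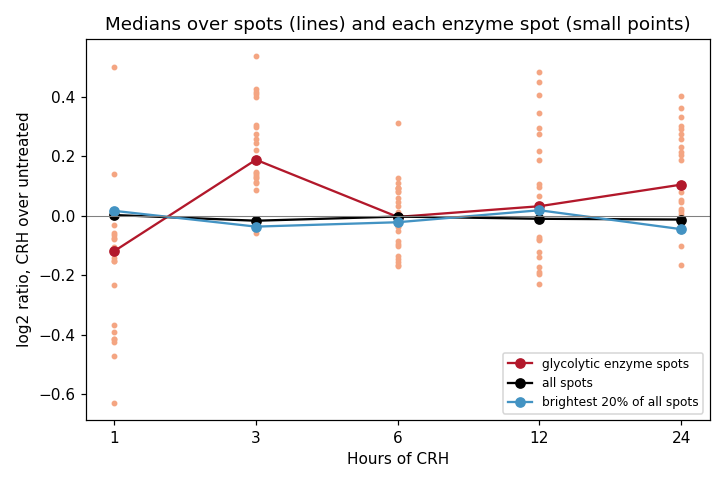
Median log2 ratio, treated over untreated (vertical axis), by hours of CRH (horizontal axis) over the 24 glycolytic spots (red line), all 14375 spots (black) and the brightest 20% of all spots (blue), with each glycolytic spot's mean of 6 arrays as a small point. The red line goes from -0.12 at 1 h to 0.19 at 3 h and back to -0.00 at 6 h, while both other lines stay within 0.05 of 0.

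Ranked by mean intensity over all arrays, 7 of 24 were in the brightest 20% (Tpi1, Aldoa, Pgk1, Eno3 spot 12943, Ldha, Aldoc spot 955 and Pfkp spot 6082) and 5 in the dimmest 20%. The share of all spots called for a change with time also rose with intensity, from 2.92% in the dimmest 20% to 23.9% in the brightest 20%, where 2 of 4 tested glycolytic spots were called. In the brightest 20%, 7.79% of all spots were above 0 on all 6 arrays at 3 h, as were 5 of the 7 glycolytic ones, and 43.2% of all spots had a higher mean at 3 h than at 1 h, as did all 7. The part of intensity in the calls was not tested.

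The arrays were quantified on 4 days, with 3 and 6 h sharing 1 day and 1 h alone on another, so a difference between 1 h and the other hours and one between days cannot be told apart. Within the shared day, 4 of 21 tested glycolytic spots were lower at 6 h than at 3 h at p under 0.01, beside 1.76% of all spots tested. These were Tpi1 (6 h less 3 h -0.52, p = 0.000381), Eno1 spot 13909 (-0.34, p = 0.00149), Aldoa (-0.50, p = 0.00274) and Gpi1 (-0.44, p = 0.0043), each over the 12 arrays of both hours (n = 12). None rose. Pfkp spot 7668 differed by -0.09 (p = 0.616, n = 12).

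With the 5 time points as units, a steady CRH effect was not found for any glycolytic spot. In limma on the 5 averages, 0 of 24 had a mean over time different from 0 at an adjusted p under 0.05, beside 0.0557% of all spots, and 0 of 24 a trend with the log2 of hours, beside 0% of all. At an unadjusted p under 0.05 there were 3 and 7 of 24 glycolytic spots, beside 5.44% and 7.43% of all. Eno3 spot 12943 had the largest mean over time, 0.23 ± 0.10 (SE; limma adjusted p = 0.907, n = 5), and the steepest slope, 0.15 ± 0.05 per doubling of hours (limma adjusted p = 0.513). Without 1 h its mean over time was 0.39 ± 0.06 (limma adjusted p = 0.0054, n = 4), when 44 of all spots passed. For Pfkp spot 7668 the mean over time was -0.18 ± 0.08 and the slope 0.12 ± 0.04 (limma adjusted p = 0.907 and 0.56).

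Spots that carry the same gene name correlated weakly. After removal of each orientation's mean, the correlation over the 30 arrays between spots of 1 gene ranged from -0.14 for Aldoc spots 955 and 10089 to 0.49 for Pfkp spots 6082 and 7668. Both Eno3 spots correlated at 0.40 and both Eno1 spots at 0.36. With Tpi1, r was 0.77 for Eno3 spot 12943, 0.72 for Gpi1, 0.70 for Aldoa, 0.67 for Ldha and 0.66 for Pgk1. For Pfkp it was 0.57 on spot 6082, 0.54 on spot 7668 and 0.16 on spot 7133. The median r with Tpi1 was 0.38 over the other glycolytic spots and -0.02 over all spots. These arrays share time points and extracts, and the values are descriptions.

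**Figure D4:**
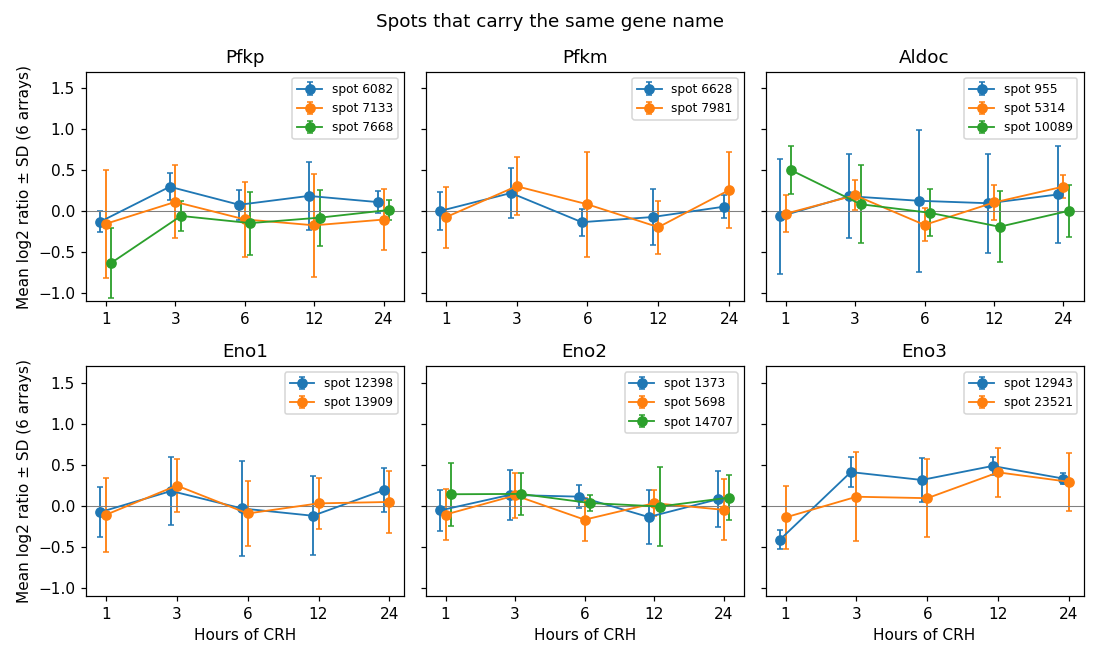
Mean log2 ratio, treated over untreated, with SD over 6 arrays (vertical axis) by hours of CRH (horizontal axis) for the 6 genes with more than 1 measured spot, 1 colour per spot. At 1 h Pfkp spot 7668 lies at -0.63 below its namesakes and Aldoc spot 10089 at 0.50 above its own, while the other spots of a gene differ by at most 0.27 at that hour.

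The named spots outside the pathway whose ratios ran most like those of Tpi1 over the 30 arrays were, among 5945 candidates, extra cellular link domain-containing 1 (r = 0.88), ribosomal protein L41 (0.86), amelogenin (0.85), lymphocyte antigen 6 complex locus E (0.85) and spot 1459 (0.84), which the scanner files name interleukin 17D and the study's own list of spots names Pebp1. Of these spots 4 were in the brightest 20%, and their means at 1 h lay between -0.65 and -0.39 and at 3 h between 0.39 and 0.77. Those most like Pfkp spot 7668 were DEAD/H box polypeptide 1 (r = 0.73), spot 1459 again (0.71), ribosomal protein L18 (0.69), calnexin (0.69) and protein tyrosine phosphatase, non-receptor type 11 (0.68). Their means at 1 h were between -0.56 and -0.33.

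Other enzymes of glycolysis gave 9 measured spots, of which 1 of 7 tested changed with time at p under 0.01 and 2 showed the interaction. The change was on Gapdh spot 15146, the dehydrogenase just after Tpi1, with means of -0.28 at 1 h and 0.27 at 3 h (p = 0.000699, n = 30). Gapdh spot 17293 had -0.29 and 0.44 but was set aside for its interaction (p = 0.000798, n = 30). The study used Gapdh as a reference in PCR on independently treated cells and states that CRH did not regulate it. Pgam1, the mutase between phosphoglycerate kinase and enolase, had -0.26 and 0.21 (p = 0.0103 for time, n = 30).

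In pathways that feed or drain glycolysis, shares called were as follows. Among transporters of glucose and lactate 1 of 4 tested spots changed with time. This was spot 4392 of Slc16a1, a carrier of lactate and pyruvate. Its means were -0.20 at 1 h and 0.27 at 6 h (p = 0.00207 for time, n = 30). The other Slc16a1 spot, 15217, had means of 0.09 and 0.21 at these hours and was not called (p = 0.661, n = 30). Slc2a1, the main glucose carrier of many cells, was not called either (p = 0.889 for time, n = 30). Of the spots for pyruvate entry and the citrate cycle 4 of 15 tested were called and 6 of 21 showed the interaction, and their median was -0.05 at 1 h and 0.09 at 3 h. The pentose phosphate pathway had 1 of 6 called (Tkt, transketolase, p = 0.00365, n = 30), glycogen metabolism 0 of 2 and gluconeogenesis 0 of 4. Of 8 tested spots of hypoxia-response genes 2 were called, Ndrg1 (p = 3.26e-05, n = 30) and the oxygen sensor Egln3 (p = 0.00654), with means from -0.25 at 6 h to 0.23 at 1 h for Ndrg1 and from -0.30 at 1 h to 0.21 at 24 h for Egln3. These shares stand beside the 8.5% called over all tested spots.

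Because several glycolytic genes moved together, their promoters were searched for the core of the hypoxia response element (ACGTG or GCGTG) and for the cAMP response element (TGACGTCA), on both strands, in the 250 bases before the start as listed by RefSeq for GRCm38.p6. A promoter was found for 17 of the 18 genes. A hypoxia core occurred before 20 of 29 listed starts, in 13 of the 17 genes, and in 38.6% of all 32851 promoters of that length. Listed starts of 1 gene can lie close together, as for Eno1, Aldoa and Pfkm, so windows overlap and can hold the same match. The starts are therefore not independent, and no share per gene was available for all genes. TGACGTCA occurred before 1 start, of Ldha, and in 1.55% of all. On both strands the palindrome CACGTG counts as a pair of ACGTG matches. A match is a string of letters and does not show binding. The promoters of Tpi1 and Pfkp are shown with those of Ldha and Pgk1, which hold the ACGTG core, with matches to any of the 3 strings in capitals. Ldha has a further listed start, and the one with more matches is shown.
Tpi1, chr6:124814159-124814408, minus strand: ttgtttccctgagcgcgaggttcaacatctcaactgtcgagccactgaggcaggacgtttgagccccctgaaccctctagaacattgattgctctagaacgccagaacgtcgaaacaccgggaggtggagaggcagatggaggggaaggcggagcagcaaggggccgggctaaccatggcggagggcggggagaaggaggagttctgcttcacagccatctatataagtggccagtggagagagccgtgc
Pfkp, chr13:6648772-6649021, minus strand: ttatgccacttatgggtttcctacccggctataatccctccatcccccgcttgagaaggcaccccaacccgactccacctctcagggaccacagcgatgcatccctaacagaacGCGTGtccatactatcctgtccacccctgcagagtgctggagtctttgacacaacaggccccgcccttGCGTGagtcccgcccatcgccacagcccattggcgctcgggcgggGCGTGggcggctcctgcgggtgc
Ldha, chr7:46845554-46845803, plus strand: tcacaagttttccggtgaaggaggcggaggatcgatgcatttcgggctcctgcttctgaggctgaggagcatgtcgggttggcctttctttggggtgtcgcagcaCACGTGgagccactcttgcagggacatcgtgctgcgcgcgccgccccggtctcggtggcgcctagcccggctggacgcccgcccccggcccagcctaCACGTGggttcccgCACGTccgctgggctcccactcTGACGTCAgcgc
Pgk1, chrX:106186850-106187099, plus strand: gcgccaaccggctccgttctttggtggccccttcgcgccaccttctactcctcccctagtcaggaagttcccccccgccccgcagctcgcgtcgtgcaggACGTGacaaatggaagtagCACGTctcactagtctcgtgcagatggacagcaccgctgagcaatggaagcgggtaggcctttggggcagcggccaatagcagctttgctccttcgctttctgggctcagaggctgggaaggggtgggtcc

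The Tpi1 window held none of the 3 strings. Pfkp held GCGTG 3 times, Ldha, at the start shown, ACGTG 5 times and TGACGTCA once, and Pgk1 ACGTG in 2 places. Before its other listed start Ldha held a single GCGTG and neither ACGTG nor TGACGTCA. Gpi1 held none of the 3 strings, Eno3 a single GCGTG, and Aldoa a single ACGTG before 2 of its 3 listed starts.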

How the data were processed

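The authors deposited, per array, spot and local background intensities in Cy3 and Cy5, neither subtracted nor normalized, and a table of normalised log2 ratios for 12593 spots, 20 of the 31 glycolytic spots among them, which the authors made by removing the lowest 10% of intensities and a print-tip loess fit. Ratios were recomputed here from the intensities by the same kinds of step, with the filter asked of every array, which kept other spots: 14375, among them 24 glycolytic spots (span 0.75, symmetric family, 4 iterations, no background subtraction, median background at most 28.3) and turned to CRH-treated over untreated. Over the 11341 spots in both sets, Pearson's r with the deposited column of the same array was between 0.977 and 0.994. The dyes of 1 array were stored in the opposite channel order.

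For each spot a linear model (R 4.3.3) on its 30 ratios gave F tests of time by dye interaction and, without it, of time as 5 levels, both at p under 0.01. limma 3.58.1 on the 5 averages tested the mean and the slope. The size rule asks for a mean of at least 1.5-fold with 1 sign on all 6 arrays. Promoters were searched with Python 3.11.15. All fits covered all spots, were tested on simulated data, and were repeated under other backgrounds, normalizations, filters, blocks, thresholds and arrays left out. Members and lists were chosen with earlier results of these data known. Named are Tpi1, Pfkp, every glycolytic spot past a test or the size rule, 1 spot of each other step, and the 5 named spots most like Tpi1 and Pfkp.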

Additional observations from a re-analysis of the deposited data

Results flagged for a closer look

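For 8 spots (those called for time or for the interaction) the 6 arrays of each time point were checked for an array far from the rest, which made 40 groups. In 1 of them, Gpi1 at 1 h, the highest array (replicate 6, 0.07) stood 0.635 of the whole range above the nearest one (-0.35), past Dixon's critical value for 6 arrays. Chance alone marks about 1 group in 20. The ratio of treated over untreated RNA differed between time points for 5 spots, by the F test of time (n = 30 arrays): Tpi1 (p = 4.57e-10), Aldoa (p = 6.34e-05), Gpi1 (p = 0.00017), Aldoc spot 5314 (p = 0.00398) and Pfkp spot 7668 (p = 0.00399).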

How the results depend on the processing

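The count of 5 glycolytic spots called for time was 8 with median centring without loess, 3 at an adjusted p under 0.05 and 0 with hours as a single number. It was also 0 in 12 and 24 h alone on their shared day. That test had only the Cy5 orientation, with 2 arrays at 12 h and 3 at 24 h, and so little power. The other settings gave 4 to 7, and leaving out 1 array gave 4 to 7. Interaction calls (3) were 5 on the deposited ratios and 0 with hours as a single number, and 2 to 5 without 1 array (5 without 1h replicate 5 or 6h replicate 6). The 1 spot past the size rule became 0 with 1 loess curve per array and 0 to 2 without 1 array: 0 without 1h replicate 1, and 2, with Tpi1 at 3 h added, without 3h replicate 4 or 5. For the CRH effect and the trend (0 and 0) leaving out any array gave 0, and 1 spot, Eno3, was called for the CRH effect without 1 h. With the replicate number as a block, the time count was 5, and limma on the 30 arrays called 2 for the CRH effect (of 239 in all) and 3 for the trend (of 226), on technical spread alone. Same-numbered arrays did not deviate together (r from -0.02 to 0.05 across spots over 60 pairs), so the numbers were not used as pairs. The causes were not tested.

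The change of Tpi1 with time lost its call only with hours as a single number (p = 0.0237, n = 30), of 14 settings beside arrays left out. Pfkp spot 7668 lost its call in 6 of 14: with hours as a single number (p = 0.0214, n = 30), the day as a block (p = 0.338), either dye orientation alone (p = 0.0734 and 0.113, n = 15), the adjusted threshold, and, chosen after seeing the data, without 1 h. No direction reversed. No day held 1 h with another hour, so the difference from 1 h had no within-day value for Tpi1 or Pfkp. The test with the day as a block leaves that difference out.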
